A study of Harpegnathos saltator with 27 samples.

Results

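The effect of a juvenile hormone analog was compared between the fat body and the ovary of Harpegnathos saltator, a ponerine ant. Of the 27 RNA-seq libraries of the study, 12 make up the comparison, with 3 libraries in each of 4 groups. Workers received an abdominal injection of methoprene, given in the labels as JHA (500 ng), or of the solvent alone, which was about 1 µL of 10% ethanol (EtOH) in Hank's balanced salt solution. Ovary and fat body of the abdomen were dissected 12 h later, so the groups are EtOH fat body, JHA fat body, EtOH ovary and JHA ovary. Every group carries an injection and ethanol, and no uninjected ants were used here. The other 15 libraries are brain libraries and libraries of ants given 20-hydroxyecdysone (20E); they entered the fits as stated beside each result. For each gene the JHA to EtOH fold change in the ovary was subtracted, on the log2 scale, from that in the fat body, and the genes were sorted into those that moved in the same direction, in 1 tissue only, or in opposite directions.

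Juvenile hormone is a lipid hormone of insects that is made in the corpora allata, next to the brain, and reaches every organ through the haemolymph. It binds the intracellular receptor Methoprene-tolerant, a transcription factor that pairs with Taiman to switch on target genes, and methoprene is a stable analog that acts on the same receptor. The fat body is the insect counterpart of liver and adipose tissue and makes yolk proteins and storage proteins, while the ovary holds the germ line, its nurse cells and the follicle cells. In many insects the hormone acts on both tissues during egg production. Workers of this ant can turn into egg-laying individuals called gamergates.

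The 6 fat body libraries held 13.1 to 21.6 M (mega) gene counts and the 6 ovary libraries 9.74 to 14.8 M. None of the 20659 gene identifiers carries a name in the count table, and 0 matched a RefSeq table of 14329 genes of the species, so the genes are given by identifier with no function, and at most 2 per direction are named. The tissue labels could therefore not be checked against named markers. Instead, genes at least 8-fold higher in one tissue than in the other were chosen on the 20E libraries, which are not part of the comparison. The 323 fat-body-enriched genes took 51.6 to 57.6% of the counts of the 6 fat body libraries, and the 1781 ovary-enriched genes took 1.46 to 1.95%. In 5 ovary libraries the ovary-enriched genes took 27.1 to 28.5% and the fat-body-enriched genes 1.03 to 1.31%. The ovary library labelled JHA replicate 1 stood apart, with 18.9% and 1.97%. On the first principal component of the 9 ovary libraries, which held 49.0% of the variance, that library lay at 73.1 and the other 8 between -27.6 and 21.7. Results that rest on it are given with and without it.

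In the fat body 111 of 9870 genes (1.12%) passed the test for JHA against EtOH, of which 47 rose (0.476%) and 64 fell (0.648%) (edgeR quasi-likelihood test, Benjamini-Hochberg adjusted p under 0.05). In the ovary 0 of 11418 genes passed the same test. At an unadjusted p under 0.05 there were 1617 genes (16.4%) in the fat body and 401 (3.51%) in the ovary, and in the ovary DESeq2 called 7 genes and limma voom with library weights 0. A gene that passes in 1 tissue and not in the other is not thereby shown to differ between them, so the difference itself was tested. For the difference 193 of 13367 genes (1.44%) passed, 96 with a larger log2 fold change in the fat body (0.718%) and 97 with a smaller one (0.726%). Fitted with the fat body and ovary libraries alone, and no brain libraries, the same test called 40 genes, 39 of them among the 193, and with the 12 JHA and EtOH libraries alone it called 46, with 42 among the 193. All of these tests treat the tissues as independent samples. In bulk RNA, fewer cells of a type and less RNA per cell cannot be told apart.

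The fat body fold changes were wider than those of the ovary. Over the 9508 genes tested in both tissues, 862 (9.07%) differed at least 2-fold between JHA and EtOH in the fat body and 221 (2.32%) in the ovary. The median absolute log2 fold change was 0.27 in the fat body and 0.19 in the ovary, beside median standard errors of 0.26 and 0.22. The median within-group SD of log2(CPM + 1), where CPM is the depth-scaled count on the TMM library size, was 0.25 in EtOH fat body, 0.22 in JHA fat body, 0.13 in EtOH ovary and 0.28 in JHA ovary, the last falling to 0.09 without replicate 1. The solvent libraries thus varied more in the fat body than in the ovary, and the JHA libraries varied more in the fat body than the remaining pair in the ovary.

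Across those 9508 genes the fold changes of the tissues were close to unrelated. Pearson's r was -0.03 and Spearman's rho -0.11, as a description over genes, which are not independent replicates. The same sign was found for 4148 genes (43.6%). Without the ovary library JHA replicate 1 the values were 0.06, 0.02 and 49.6%. The plot of the effects in the tissues shows a cloud that is stretched along the fat body axis.

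**Figure D1:**
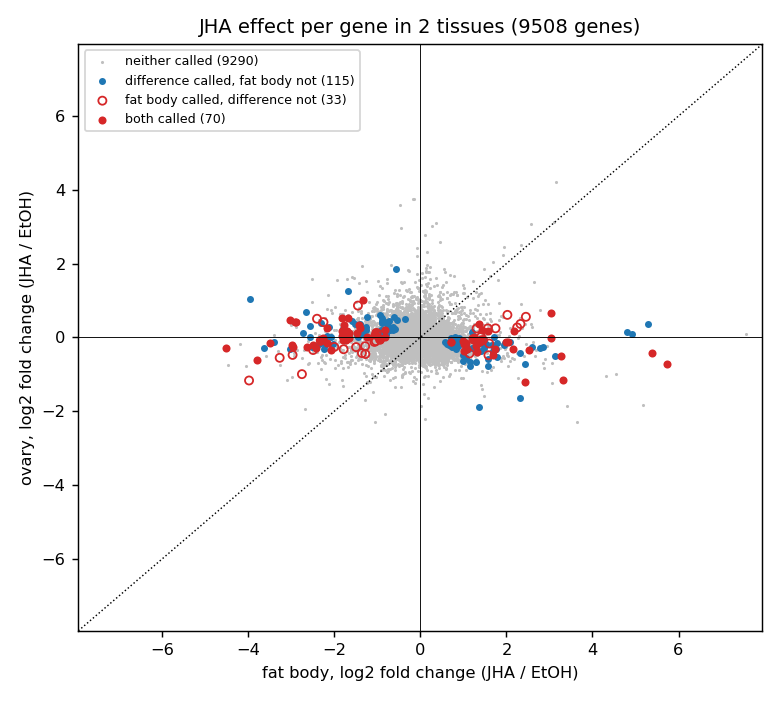
Log2 fold change (JHA over EtOH) in the fat body, x axis, against that in the ovary, y axis, for the 9508 genes tested in both tissues; each point is 1 gene and the dotted line marks equal change. Genes called for the fat body (red), for the tissue difference (blue) or for both (filled red, 70 genes) spread along the horizontal axis and mostly stay near 0 on the vertical axis.

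The 4 genes named for the smallest p of the difference had separate groups in the fat body, and for 3 of the 4 the ovary groups overlapped. HSALG029765.1 had 4.35, 3.15 and 3.83 CPM in the 3 EtOH fat body libraries and 13.5, 17.2 and 16.2 CPM in the 3 JHA libraries. In the ovary it had 39.6, 39.4 and 31.0 CPM with EtOH and 30.2, 39.5 and 30.8 CPM with JHA. The fat body groups did not overlap and the ovary groups did. Its log2 fold change was 2.04 (SE 0.21) in the fat body and -0.13 (SE 0.19) in the ovary, a difference of 2.19 (SE 0.25, edgeR adjusted p = 0.000114). HSALG009158.1 followed the same course, from a mean of 6.75 ± 1.70 CPM (SD, n = 3) to 27.1 ± 1.93 in the fat body, while the ovary held 83.5, 83.3 and 77.3 CPM with EtOH and 66.6, 80.8 and 74.8 with JHA. Its difference was 2.16 (SE 0.27, edgeR adjusted p = 0.000153). For both genes the EtOH level in the ovary was higher than the JHA level in the fat body, on scales set within each tissue.

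Among genes with a smaller fold change in the fat body, HSALG002447.2 had 554, 528 and 494 CPM with EtOH and 141, 160 and 148 CPM with JHA in the fat body. In the ovary it had 61.4, 72.6 and 57.9 CPM with EtOH and 127, 75.3 and 73.5 CPM with JHA, so that the 3 JHA values lay above the 3 EtOH values, with JHA replicate 1 the highest. The difference was -2.32 (SE 0.27, edgeR adjusted p = 0.000114). HSALG009446.1 fell in the fat body from 264 ± 48.6 to 83.4 ± 12.9 CPM (SD, n = 3). The fat body level with JHA was then close to the ovary levels of 83.2 ± 2.43 CPM with EtOH and 90.5 ± 9.78 with JHA, again on scales set within each tissue. Its difference was -1.76 (SE 0.22, edgeR adjusted p = 0.000153). All 4 genes were called in all 22 alternative settings tried, with differences between 2.05 and 2.37 for the pair that rose in the fat body and between -2.46 and -1.62 for the pair that fell. Their choice by the smallest p in these libraries favours such calls.

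**Figure D2:**
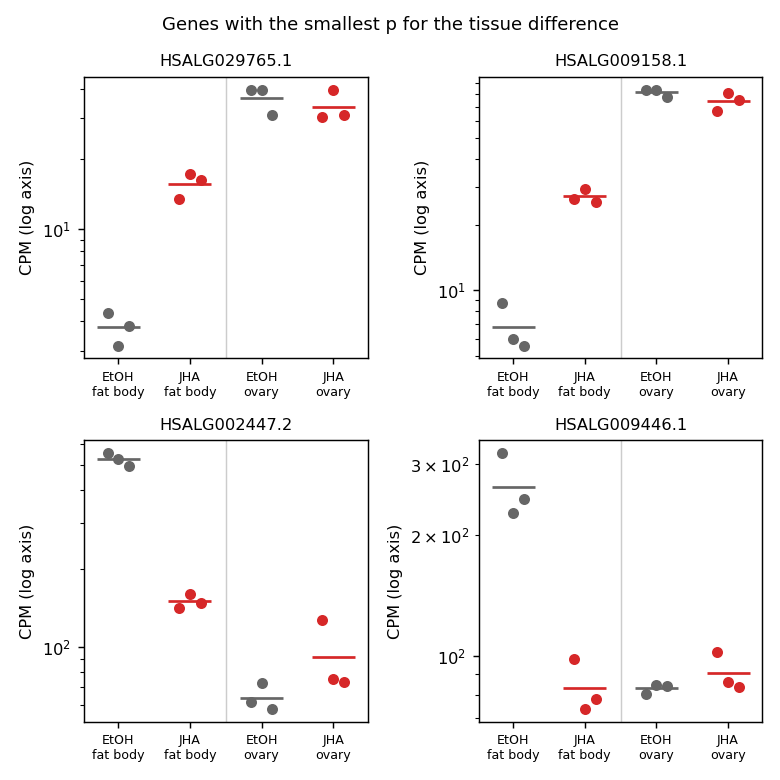
CPM on a log axis in each of the 12 libraries for the 4 genes with the smallest p for the tissue difference, with EtOH in grey, JHA in red, the fat body left and the ovary right of the line in each panel; bars are group means. The 3 JHA fat body points are separate from the 3 EtOH points in every panel, while the ovary points of HSALG029765.1, HSALG009158.1 and HSALG009446.1 overlap.

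Of the 193 genes with a called difference, 185 were tested in both tissues, 6 were too low to be tested in the ovary and 3 too low in the fat body, 1 of them in both. The size of the difference ran from 0.72 to 10.83 on the log2 scale with a median of 1.78, and 81 genes differed at least 4-fold. In 182 of the 185 the fold change was the larger one, by size, in the fat body, against 61.1% of all 9508 genes, and in 3 it was larger in the ovary. The JHA and EtOH groups did not overlap in the fat body for 180 of the 185 (21.2% of all genes) and in the ovary for 47 (16.0% of all genes). These counts come from the contrast that chose the genes and are given as a description.

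By sign, 80 of the 185 genes were higher with JHA in the fat body and lower in the ovary, 67 were lower in the fat body and higher in the ovary, 11 were higher in both and 27 lower in both. Opposite signs were thus found for 147, but a difference is selected more easily when the signs are opposite. Groups that did not overlap in either tissue, with opposite directions, were found for 40. The choice of the genes favours such cases too. Among all genes the groups did not overlap for 21.2% in the fat body and 16.0% in the ovary. The share of all genes with both, in opposite directions, was not counted. Without the ovary library JHA replicate 1, 127 of the 185 had opposite signs. The median ovary log2 fold change was -0.22 for the 92 genes tested there with a higher log2 fold change in the fat body. It was 0.16 for the 95 with a lower one, next to fat body medians of 1.40 and -1.68. Without the ovary library JHA replicate 1 the ovary medians were -0.08 and 0.09.

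A core of 27 genes was called with 27, 18 and 12 libraries, 14 of them with a higher log2 fold change in the fat body. Of the 27, 24 were also called by the fat body test, beside 1.12% of all genes tested there. The heat map of these genes shows the 3 JHA fat body libraries moving together and the ovary libraries near their solvent mean, apart from JHA replicate 1, which moved against the fat body for several genes. Over all 23 settings 12 genes were called each time, 6 in each direction, and 11 of those were also called in the fat body. Both overlaps with the fat body calls are favoured by the choice, because the difference contains the fat body effect.

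**Figure D3:**
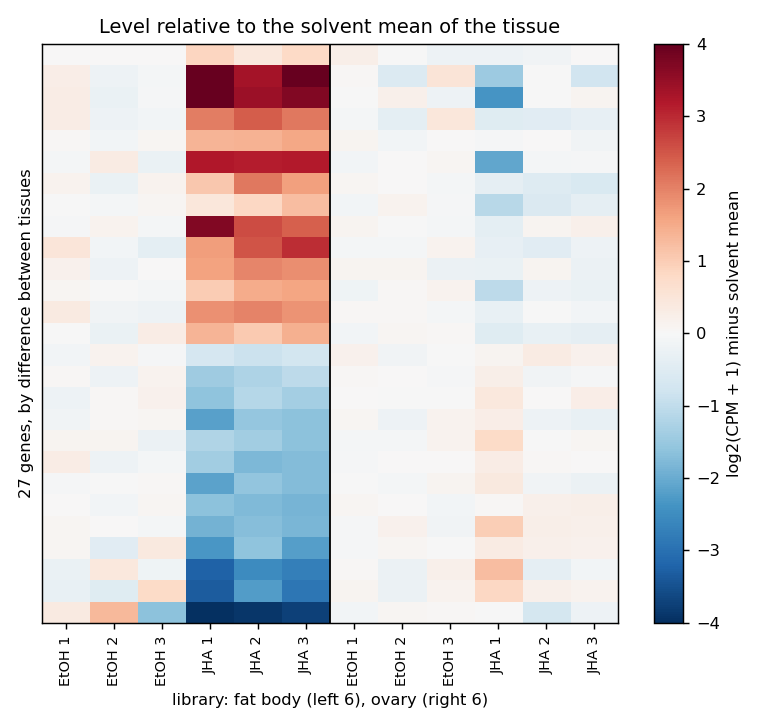
Level of 27 genes (rows, ordered by the tissue difference) in the 6 fat body libraries (left) and the 6 ovary libraries (right), as log2(CPM + 1) minus the mean of the 3 EtOH libraries of the tissue, red above and blue below it and the colours capped at 4 either way. The genes were picked because their difference was called with 27, 18 and 12 libraries, so the contrast between left and right is part of the choice.

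Sorted by the calls, 0 genes were called in both tissues, whether in the same or in opposite directions, and 0 in the ovary alone. Of the 111 genes called in the fat body, 103 were tested in both tissues. Of these, 70 had a called difference, so their log2 fold changes differed between the tissues by that test: 31 rose and 39 fell in the fat body. The test is of the signed difference and does not ask in which tissue the response was larger by size. For 33 the difference was not called, 13 that rose and 20 that fell, and whether these respond in the fat body only was not decided by the test. The last 8, of which 3 rose and 5 fell, were too low in the ovary to be tested there, and 1 of them had a called difference in the fit of all libraries. Among the 193 called differences 115 genes tested in both tissues were not called in the fat body itself.

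The ovary values of these classes differed. Of the 31 that rose with a called difference, 26 were below 0 in the ovary, with a median log2 fold change of -0.14. The 39 that fell had an ovary median of 0.06. Without the ovary library JHA replicate 1 these medians were -0.03, with 17 of the 31 below 0, and -0.01. For the classes without a called difference the ovary medians lay on the side of the fat body effect, at 0.24 for the 13 that rose and -0.25 for the 20 that fell, 15 of which were also below 0 in the ovary. Without JHA replicate 1 the medians were -0.26 and -0.26, so the 13 that rose were then lower in the ovary, 10 of them below 0. A difference that was not called includes, by its construction, the genes whose ovary value lies closer to the fat body value.

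Among the genes named for the largest called changes of the fat body, 3 of 4 had a called difference from the ovary and the fourth was too low there to be tested. HSALG004351.1 had 0.737, 0.236 and 0.362 CPM with EtOH and 30.4, 13.3 and 30.3 CPM with JHA in the fat body, a 53.6-fold rise (edgeR adjusted p = 0.0451). In the ovary it had 32.6, 21.3 and 45.6 CPM with EtOH and 10.9, 31.2 and 18.1 CPM with JHA. Its ovary groups overlapped, with JHA replicate 1 the lowest, and the difference was 6.49 (SE 0.94, edgeR adjusted p = 0.000713). The rise in the fat body was called in 11 of 19 alternatives. It stayed between 5.48 and 6.32 on the log2 scale in all of them, and the call was lost on leaving out any one of the 6 fat body libraries.

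HSALG000750.2 had 0.737, 0.157 and 0.362 CPM with EtOH and 23.7, 14.0 and 17.3 CPM with JHA in the fat body, a 42.0-fold rise (edgeR adjusted p = 0.0103) that was called in all 19 alternatives. In the ovary it had 25.7, 30.2 and 22.3 CPM with EtOH and 4.29, 25.7 and 27.9 CPM with JHA. JHA replicate 1 was far below the other 5 ovary libraries, which overlapped. The difference was 5.86 (SE 0.81, edgeR adjusted p = 0.000597).

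HSALG000622.2 fell in the fat body from 344, 652 and 83.9 CPM with EtOH to 11.2, 17.0 and 19.2 CPM with JHA (edgeR adjusted p = 0.0254). The EtOH libraries varied widely but all lay above the JHA libraries. This call was lost on leaving out any one of the JHA fat body libraries and held in the other 16 of 19 alternatives. The ovary groups, at 38.7 ± 3.01 CPM with EtOH and 31.5 ± 7.51 with JHA (SD, n = 3), overlapped, and the difference was -4.19 (SE 0.63, edgeR adjusted p = 0.000914). The called differences of HSALG004351.1, HSALG000750.2 and HSALG000622.2 were held in 21 of 22 alternatives each and lost with the block for the presumed ant.

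HSALG007590.2 fell in the fat body from 106, 110 and 87.5 CPM to 2.49, 6.26 and 1.70 CPM (edgeR adjusted p = 0.0255), a call held in 14 of 19 alternatives and lost without any one of EtOH replicates 2 and 3 and JHA replicates 1 and 3 of the fat body. In the ovary it was at most 0.277 CPM in all 6 libraries and was not tested there. The difference, -3.47 (SE 2.48), did not pass (edgeR adjusted p = 0.539), so a fall of this size in 1 tissue did not by itself give a called difference where the other tissue had few counts.

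Genes called in the fat body without a called difference included some that moved the same way in the ovary. HSALG002460.2 fell in the fat body from 556, 584 and 324 CPM to 32.2, 32.3 and 28.1 CPM (edgeR adjusted p = 0.0347). It had 17.5, 16.3 and 14.1 CPM with EtOH and 4.29, 9.52 and 7.50 CPM with JHA in the ovary, where the groups did not overlap either. Its EtOH level was far higher in the fat body, on scales set within each tissue. The part of fat body RNA in its ovary values was not tested. The ovary value was -1.17 on the log2 scale (SE 0.35, edgeR adjusted p = 0.825) and the difference -2.79 (SE 0.86, edgeR adjusted p = 0.113). The fat body call was held in 11 of 19 alternatives and lost without any one of the 6 fat body libraries.

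HSALG006907.2 rose in the fat body from 49.0 ± 5.80 to 199 ± 46.4 CPM (SD, n = 3, edgeR adjusted p = 0.0105), and its ovary values of 13.4, 13.2 and 10.7 CPM with EtOH and 27.4, 12.3 and 17.5 CPM with JHA overlapped. The difference of 1.43 (SE 0.54) had an edgeR adjusted p of 0.194. Its fat body call was held in 18 of 19 alternatives and lost without fat body JHA replicate 3. HSALG006234.1 rose in the fat body from 15.9 ± 8.74 to 87.4 ± 5.52 CPM, and HSALG011239.2 fell from 4.83 ± 1.52 to 0.707 ± 0.261 CPM (edgeR adjusted p = 0.0442 and 0.0391). Their ovary groups overlapped, and the edgeR adjusted p of the difference was 0.218 and 0.56. The fat body call of HSALG011239.2 was lost without any one of the 6 fat body libraries, and that of HSALG006234.1 without any one of them other than EtOH replicate 3.

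In the ovary, where no gene passed the edgeR test, the values nearest to a call were given by HSALG010831.1 and HSALG010835.1 on the upper side and HSALG001069.2 and HSALG006549.2 on the lower side, each with an edgeR adjusted p of 0.825. DESeq2 called all 4, with adjusted p-values of 0.0046 to 0.0194. HSALG010831.1 had 104, 25.9 and 14.4 CPM with EtOH and 387, 464 and 405 CPM with JHA in the ovary, a log2 fold change of 3.12 (SE 0.68). All 3 JHA libraries, replicate 1 included, were above all 3 EtOH libraries. In the fat body it had 1.81, 0.157 and 1.74 CPM with EtOH and 10.7, 4.21 and 17.7 CPM with JHA, a log2 fold change of 3.11 (SE 0.76, edgeR adjusted p = 0.0893). The difference was -0.01 (SE 1.53, edgeR adjusted p = 1), between -1.26 and 0.55 over the alternatives, so a wide range of differences remained possible.

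HSALG010835.1 had 49.6, 8.82 and 6.13 CPM with EtOH and 166, 202 and 178 CPM with JHA in the ovary, a log2 fold change of 3.08 (SE 0.74). In the fat body it had 0.937, 0.236 and 0.940 CPM with EtOH and 4.27, 1.15 and 7.49 CPM with JHA, also without overlap, and a log2 fold change of 2.58 (SE 0.81, edgeR adjusted p = 0.164). For both genes EtOH replicate 1 was the highest EtOH library of the ovary. Whether the genes share reads cannot be told from the count table.

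On the lower side, HSALG001069.2 had 130, 104 and 126 CPM with EtOH and 59.7, 77.6 and 76.5 CPM with JHA in the ovary, while its fat body groups overlapped at 9.09 ± 4.91 and 9.57 ± 6.85 CPM (SD, n = 3). HSALG006549.2 had 4.64, 3.86 and 2.90 CPM with EtOH and 0.729, 0.993 and 1.35 CPM with JHA in the ovary. Its fat body values of 0.603, 1.42 and 0.723 CPM with EtOH and 2.38, 1.10 and 3.53 CPM with JHA overlapped in part and lay higher with JHA on average. Its difference was called, at 3.26 (SE 0.61, edgeR adjusted p = 0.00778), with an ovary log2 fold change of -1.89 (SE 0.38) beside 1.35 (SE 0.64) in the fat body, so it was 1 of the 3 called differences with the larger fold change in the ovary. The difference was called in 17 of 22 alternatives and in none of the 5 fits without brain libraries.

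Since no gene was called in both tissues, all 9508 genes were also sorted by a wider description with no test. A gene was taken as shifted in a tissue when its 3 JHA values did not overlap its 3 EtOH values and its fitted fold change was at least 2. In the fat body 560 genes were shifted (5.89%), 244 up and 316 down, and in the ovary 66 (0.694%), 34 up and 32 down. Shifts in the fat body only were found for 544 genes, 236 up and 308 down, and in the ovary only for 50, 27 up and 23 down. The same direction was found for 11 genes, 5 up and 6 down, and opposite directions for 5. No shift was seen in 8898 genes.

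Read against each tissue's own list, overlap was small. Of the 244 genes shifted up in the fat body 2.05% were shifted up and 1.23% down in the ovary, beside 0.358% and 0.337% of all genes. Of the 316 shifted down in the fat body 1.90% were shifted down and 0.633% up in the ovary. Seen from the ovary, 14.7% of its 34 upward shifts were shifted up in the fat body, beside 2.57% of all genes. Of its 32 downward shifts 18.8% were shifted down there, beside 3.32% of all genes. Opposite shares were also above those of all genes: 5.88% of the upward shifts went down in the fat body and 9.38% of the downward shifts went up. With counts of 2 to 6 genes behind these shares, they are given as a description.

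Among the genes shifted up in both tissues, HSALG008148.1 had 1693, 333 and 742 CPM with EtOH and 12473, 6514 and 5537 CPM with JHA in the fat body. In the ovary it had 0.554, 0.394 and 0.564 CPM with EtOH and 8.75, 0.993 and 18.7 CPM with JHA. The groups did not overlap in either tissue, and the ovary JHA libraries differed widely among themselves, with replicate 2 lowest. Its level was far higher in the fat body, and the part of fat body RNA in its ovary values was not tested. The log2 fold change was 3.15 (SE 0.96, edgeR adjusted p = 0.156) in the fat body and 4.20 (SE 1.07, edgeR adjusted p = 0.825) in the ovary, and the difference between them, with an SE of 1.47, did not pass (edgeR adjusted p = 0.802). Its brain means were 15.0 CPM with EtOH and 130 CPM with JHA (edgeR adjusted p = 0.865), so the mean was higher with JHA in all 3 tissues but passed the edgeR test in none. DESeq2 called it, and HSALG010831.1, in both the fat body and the ovary.

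The downward genes of this class were HSALG000919.1 and HSALG005597.2. HSALG000919.1 went from a mean of 47.0 ± 21.2 to 10.7 ± 6.52 CPM (SD, n = 3) in the fat body, and had 11.1, 7.80 and 11.6 against 7.39, 2.40 and 3.02 CPM in the ovary. HSALG005597.2 went from a mean of 22.3 ± 9.86 to 9.42 ± 3.69 CPM in the fat body and from 36.3 ± 17.3 to 15.6 ± 8.53 CPM in the ovary (SD, n = 3). Neither passed the edgeR test in a tissue (adjusted p of 0.18 to 0.825), and the differences of -0.87 (SE 0.83) and -0.02 (SE 0.59) did not pass either. A difference that misses the threshold does not show that the tissues respond alike.

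Of the 5 genes shifted in opposite directions 3 went up and 2 down in the fat body. HSALG012331.1 had 1.21, 2.52 and 1.88 CPM with EtOH and 3.21, 15.9 and 8.70 CPM with JHA in the fat body, and 3.67, 2.52 and 1.29 against 1.19, 0.745 and 0.417 CPM in the ovary. Groups were apart in both tissues, by a narrow margin. Its difference was 3.98 (SE 0.80, edgeR adjusted p = 0.0127), called in 17 of 22 alternatives and in none of the 5 fits without brain libraries.

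The next genes were added after their values were seen. HSALG000186.2 fell in the fat body from 70.9, 69.9 and 47.8 to 23.7, 19.6 and 32.0 CPM (edgeR adjusted p = 0.0416) and had 0.554, 0.236 and 0.403 CPM with EtOH and 0.821, 0.911 and 0.729 CPM with JHA in the ovary. Its ovary values, all under 1 CPM, did not overlap, and the difference of -2.32 (SE 0.50) was called (edgeR adjusted p = 0.02), as it was in 14 of 22 alternatives. That call was lost in the 5 fits without brain libraries and without any one of the ovary libraries EtOH 2, EtOH 3 and JHA 1, and the fat body call without any one of the fat body libraries other than EtOH 3. HSALG027259.1, higher with JHA in the fat body, and HSALG029657.1, lower there, were under 5 CPM in all 12 libraries, and their differences of 2.70 (SE 0.84) and -2.74 (SE 0.78) did not pass (edgeR adjusted p = 0.115 and 0.0829).

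**Figure D4:**
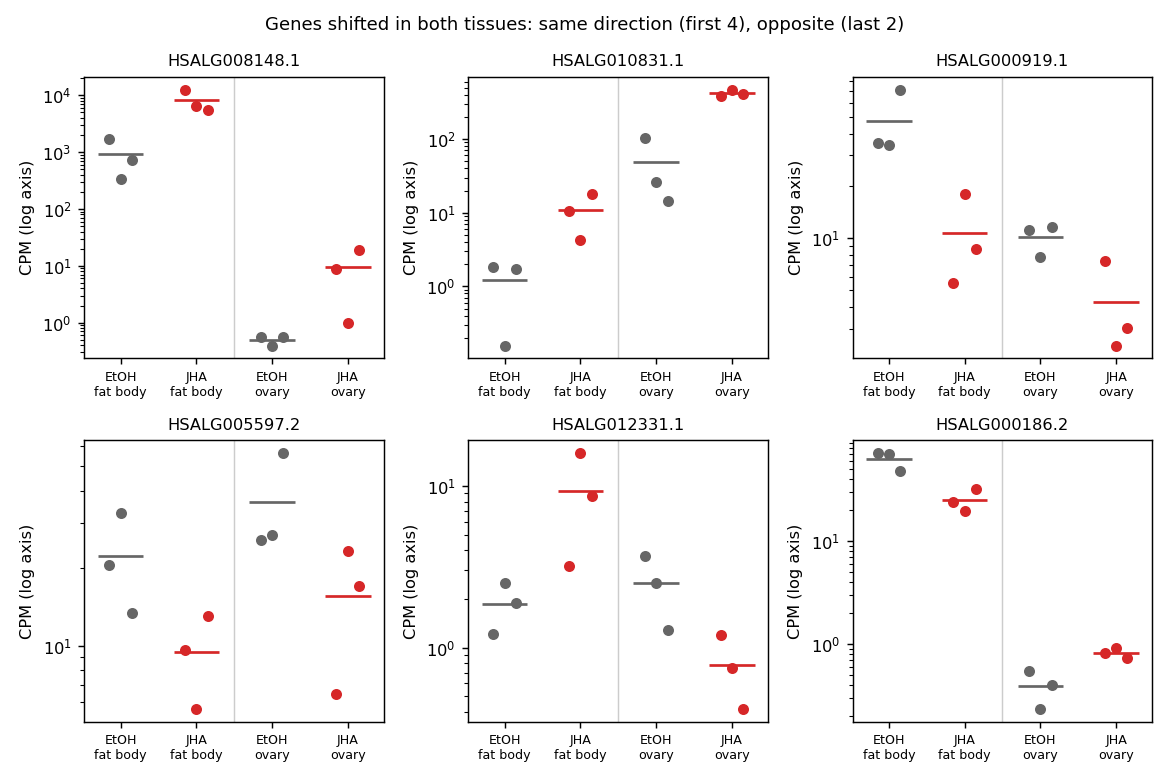
CPM on a log axis in each of the 12 libraries for 6 genes whose JHA values (red) do not overlap their EtOH values (grey) in either tissue, with the fat body left and the ovary right of the line in each panel and bars at group means. The first 4 panels move the same way in both tissues and the last 2, HSALG012331.1 and HSALG000186.2, move in opposite ways; non-overlap was part of the choice.

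The classes differed in how the fat body to ovary level of their genes compared with that of all genes. The ratio of the fat body level to the ovary level was taken on the 20E libraries, which hold none of the EtOH or JHA values, and is given on the log2 scale relative to the median of all genes, because scaling on total counts alone moved that median from 0.00 to -1.62. The 39 genes that fell in the fat body with a called difference had a median ratio of 1.28, and 32 of the 39 were above the median of all genes. The 31 that rose had a median ratio of -0.68, and 19 of the 31 were below it. This was not so for all genes that rose: the 13 without a called difference had a median ratio of 1.50, 11 of them above the median of all genes, and all 47 had 0.61, with 26 above and 21 below. Over the called differences, the ratio was 1.20 for the 97 genes with a lower log2 fold change in the fat body than in the ovary. Of these 97, 74 were above the median of all genes. For the 96 with a higher log2 fold change in the fat body the ratio was -0.21. Scaled on total counts alone, the median ratios of the 39 and the 31 genes were -0.35 and -2.28, both below 0. Which tissue had the higher level thus depended on the scaling. How 20E itself acts on these genes was not separated from this ratio.

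RNA of the other tissue was followed with the enriched genes chosen on the 20E libraries. In the ovary, 190 of 258 tested fat-body-enriched genes (73.6%) were above 0 for JHA, with a median log2 fold change of 0.31, beside 52.0% of all genes. Without JHA replicate 1 the median was 0.00 and the share 50.0%. The ovary-enriched genes had an ovary median of -0.16, with 26.2% above 0, and 0.00 with 49.3% without that library. In the fat body the ovary-enriched genes had a median of 0.03, with 804 of 1507 (53.4%) above 0 beside 48.3% of all genes, and 14 of the 1507 were called there (0.929%, beside 1.12% of all genes). The ovary-enriched genes together took 1.46 to 1.66% of the EtOH and 1.47 to 1.95% of the JHA fat body counts. The difference was called for 28 of 1781 ovary-enriched genes (1.57%) and 10 of 323 fat-body-enriched genes (3.10%), beside 1.44% of all genes. The part of other-tissue RNA in these results was not tested. Without the ovary library JHA replicate 1, the difference was called for 117 genes, 98 of them among the 193.

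Genes shifted in the ovary only were also described by these levels. All 27 that were shifted up were above the median of all genes in the 20E ratio of fat body to ovary, with a median of 2.46 on the log2 scale, and 11 (40.7%) were at least 8-fold higher in the fat body, beside 5.93% of all genes. The 23 downward shifts had a median ratio of 0.95, and 8 of them (34.8%) were at least 8-fold higher in the fat body, so a raised share was found in both directions. Scaled on total counts alone, the median ratios of the 27 and the 23 genes were 0.93 and -0.63, beside -1.62 for all genes. Which tissue had the higher level thus depended on the scaling here too. The part of fat body RNA in the ovary libraries was not tested for this class. With 2 libraries in a group, which makes non-overlap easier, 101 genes were shifted in the ovary only without JHA replicate 1, and 104 and 220 without JHA replicates 3 and 2.

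The brain, the third tissue of the study, was set beside both. There 0 of 12379 genes passed the edgeR test for JHA, with 398 at an unadjusted p under 0.05 (3.22%). Of the 106 genes called in the fat body and tested in the brain, 69 were below 0 in the brain (65.1%, beside 49.0% of all genes), with a median log2 fold change of -0.05. The genes that rose in the fat body had a brain median of -0.03 and those that fell -0.09, so the brain values were near 0 on either side, as the ovary medians of -0.12 and -0.02 were.

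The number of called differences depended strongly on the fit. Leaving out any one of 7 of the 12 libraries moved it by more than 1.5 times: it was 301 without fat body EtOH 1, 120 without fat body EtOH 3, 96 without fat body JHA 3, 95, 78 and 96 without ovary EtOH 1, 2 and 3, and 117 without ovary JHA 1. For the fat body, the 111 genes became 18, 48 and 4 without JHA replicates 1, 2 and 3, and 58 and 48 without EtOH replicates 2 and 3. With library sizes from DESeq2 size factors the total was close, at 203. However, 38.9% of those genes had the higher log2 fold change in the fat body, beside 49.7% with TMM. The balance of directions among called differences moved with the scaling between tissues. The 4 genes named first kept their calls throughout, which their choice by the smallest p favours.

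**Figure D5:**
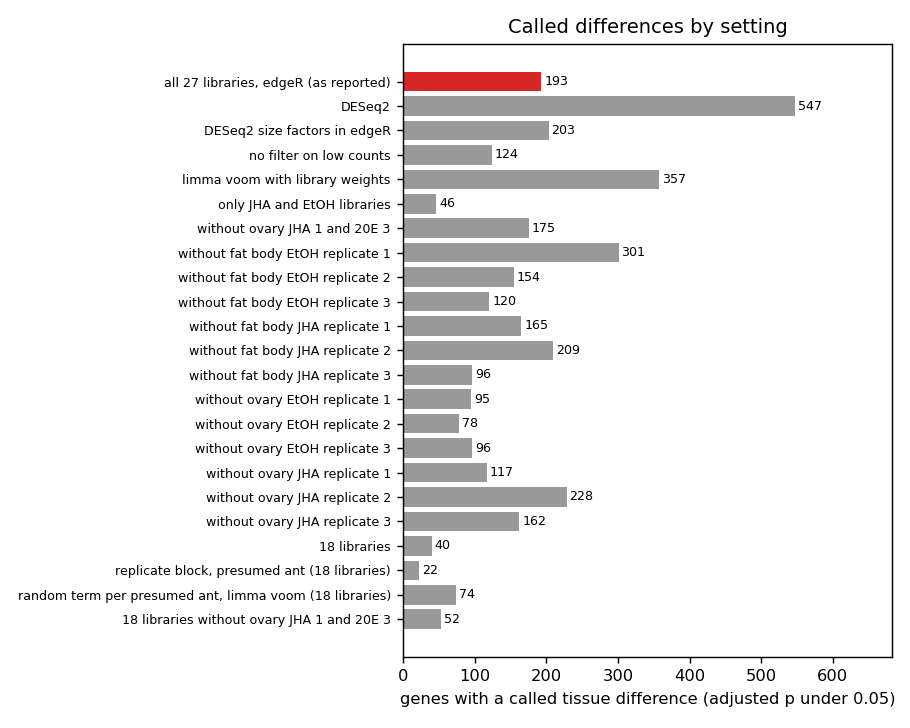
Number of genes with a called difference between the tissues (x axis, adjusted p under 0.05) in each setting (y axis), with the reported fit of 27 libraries in red at 193 and the 22 alternatives in grey. The alternatives run from 22, with a block for the presumed ant, to 547 with DESeq2.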

How the data were processed

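Poly(A) RNA of fat body, ovary and brain was sequenced on an Illumina HiSeq, per the labels' protocols. The authors deposited unnormalized read counts for 20659 gene identifiers. The submitters' processing notes name Trimmomatic, STAR 2.5.3a and HTSeq. No source used here gives the genome build, annotation or strand setting, so reads of overlapping or antisense genes may be mixed. The 5 HTSeq summary lines were left out; reads outside genes took 26.2 to 32.2% of fat body and 36.1 to 37.3% of ovary totals, and reads aligned to several places 14.3 to 17.6% and 6.58 to 8.11%.

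The quasi-likelihood test of edgeR 4.0.16 was run in R 4.3.3 on these counts (TMM library sizes, filterByExpr, robust fit). Each tissue was fitted over its 9 libraries, and the difference over all 27 libraries with 9 group means (18 residual degrees of freedom). The threshold was an adjusted p (Benjamini-Hochberg) of 0.05, and standard errors follow from the F statistic. The scripts were tested on simulated data. Tissue enrichment required 8-fold on plain CPM and 10 CPM, and tissue ratios used a pseudocount of 0.1 CPM. Alternatives were DESeq2 1.42.0, its size factors, no filter on low counts, limma 3.58.1 voom with library weights, fewer libraries, replicate blocks and leaving out each replicate; leaving out ovary JHA 1 and 20E 3 in the 18-library fit was added after seeing the data.

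Per the series' design each treatment's tissues came from 3 ants, so p-values of the tests within a tissue measure the spread between ants. The test of the difference treats tissues of the same ants as independent samples. Its p-values therefore do not measure the spread of the within-ant difference. No replicate pair of the 12 libraries agreed within sampling noise (lowest chi-square per degree of freedom 10.6).

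Named genes, apart from those added after their values were seen, had a mean of at least 2 CPM: for the difference, the 2 per direction with the smallest p; per tissue, the 2 per direction with the largest fold change among called genes without overlap, or the smallest p where fewer than 5 were called; for genes called in the fat body without a called difference and for shifted genes, 2 per direction. The members, lists and tests were chosen with earlier results of these data known. Fat body, ovary, muscle, haemocyte, brain and hormone response markers could not be matched to identifiers and gave no result.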

Additional observations from a re-analysis of the deposited data

Results flagged for a closer look

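In the fit that included the brain libraries, the test of the difference itself called 193 genes between the fat body and the ovary. That fit treats tissues of the same ants as independent samples. The number depended on the fit. With the fat body and ovary libraries alone the test called 40 genes. With only the JHA and EtOH libraries of these tissues it called 46. With a block for the presumed ant, also without brain libraries, it called 22. Among the genes named in the text, the log2 fold change in the fat body minus that in the ovary was 2.19 for HSALG029765.1, 2.16 for HSALG009158.1, 6.49 for HSALG004351.1, 5.86 for HSALG000750.2, 3.26 for HSALG006549.2 and 3.98 for HSALG012331.1. It was -2.32 for HSALG002447.2, -1.76 for HSALG009446.1, -4.19 for HSALG000622.2 and -2.32 for HSALG000186.2. The effect was larger, by size, in the ovary for HSALG006549.2 alone among these 10 genes. HSALG006549.2, HSALG012331.1 and HSALG000186.2 were called in none of the fits without brain libraries.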

How the results depend on the processing

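Over the named genes and alternatives, 65 recomputed values lost a call, 14 gained one and 19 changed sign, all 19 of them differences that were not called. Those of HSALG010831.1 were 0.003 with DESeq2, 0.033 without the filter, 0.546 with voom and -1.26 to 0.424 on leaving out a replicate. HSALG008148.1 was at 0.050 with voom and 0.073 with the random term, and HSALG005597.2 at 0.035 with the replicate block, 0.042 with the random term and -0.472 to 0.417 on leaving out a replicate. DESeq2 called 624 genes in the fat body, 7 in the ovary and 547 differences, and its sort gave 3 genes in the same direction, 336 in the fat body with a called difference, 242 without one, 43 not tested in the ovary, and 1 and 2 in the ovary only with and without a called difference. Without the filter on low counts there were 124 differences, 73 fat body genes without one, 0 not tested in the ovary, and 28, 21, 964 and 384 genes shifted in the same direction, in opposite directions, in the fat body only and in the ovary only. Voom with library weights gave 187 in the fat body, 357 differences, 128 fat body genes with one, 6 shifted in the same direction and 30 in the ovary only. The 12 libraries alone gave 46 differences, with 39 fat body genes with one and 63 without; 18 libraries gave 40. Without ovary JHA 1 and 20E 3 there was 1 gene called in the ovary, with no called difference (1), 11 opposite and 97 ovary-only shifts, and 52 differences with 18 libraries. The cause was not tested; fits with fewer libraries have fewer residual degrees of freedom.

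Leaving out each replicate gave 78 to 301 differences, 4 to 111 fat body genes, 2 to 68 with a called difference (75 without ovary JHA 1 and 20E 3 together) and 0 to 58 without one, 0 to 8 not tested in the ovary, and shifts of 11 to 23 in the same direction, 5 to 11 opposite and 45 to 220 in the ovary only.

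The replicate numbers were not established as pairing the tissues of an ant: the deviations of same-numbered fat body and ovary libraries correlated at 0.04 to 0.31, not above 0.1 in every pair, although each of the 9 correlated best with its own number. With the number as a block for the presumed ant, 22 differences were called in 18 libraries, 20 of them among the 193, and with a random term (correlation 0.145) 74. A block over the number within a tissue left 80 fat body and 0 ovary genes. Depth was not varied.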
